A study of Rattus norvegicus with 4 samples.

Results

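The genes examined here encode the machinery of endoplasmic reticulum (ER)-associated degradation, and were taken by name from a list of 10: the ubiquitin ligase gene Syvn1 and its partner Sel1l, the derlin genes Derl1, Derl2 and Derl3, the glycoprotein recognition genes Edem1 and Os9, the adaptor genes Herpud1 and Selenos, and Vcp, the gene of the p97 ATPase. All probe sets paired with a listed gene were used, 15 of 31042 in all, which stand for 9 of 14217 genes. They comprise 3 probe sets each for Derl1 and Edem1, 2 each for Derl2 and Os9, and 1 each for the other 5 genes. No probe set was paired with Derl3. Primary cardiomyocytes, the contracting cells of heart muscle, were isolated from Sprague-Dawley rat pups aged 1 or 2 days. They were infected for 24 hours in serum-free medium with adenovirus Ad-atrogin-1-GFP (Ad-atrogin-1, 2 arrays) or with Ad-GFP (2 arrays). Cells of both groups therefore carried an adenovirus and GFP, and differed by the atrogin-1 gene, which encodes an F-box subunit of a ubiquitin ligase of muscle. Each array was hybridized with RNA of 1 sample, and the labels call the samples of a group biological replicates. The methods speak of RNA from 3 independent experiments, and how these correspond to the 2 arrays per group is not given in the sources used here, so p-values measure the spread between these samples, which may be technical. The study asked how overexpressed atrogin-1 alters the gene expression programme of cardiomyocytes, and each value is the log2 signal of a probe set from robust multi-array average (RMA).

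Proteins that fail to fold in the ER are recognised in its lumen, moved back across its membrane, tagged with ubiquitin and degraded by the proteasome in the cytosol. In mammalian cells the best known route runs through a membrane complex built around the ligase HRD1, the product of Syvn1, whose partner SEL1L hands it clients that lectins such as OS9 have bound. The derlins help to move clients through the membrane, HERP (Herpud1) and VIMP (Selenos) bring further components to the complex, and p97 pulls the ubiquitinated client out. Many genes of this route are induced when unfolded proteins build up in the ER, through transcription factors such as XBP1 and ATF6, and cardiomyocytes use it to keep up the quality of their membrane and secreted proteins.

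In Ad-atrogin-1 cardiomyocytes 4 of the 9 measured genes were called higher and none lower. The 4 called genes were Herpud1, 3.41-fold higher, Sel1l, 3.16-fold higher, Selenos, 2.26-fold higher, and Syvn1, 2.12-fold higher. A gene is called here when limma gives an adjusted p below 0.05 together with a 2-fold or larger change, with its brightest probe set standing for it and p adjusted over all genes; by that rule 0.457% of all genes were called higher and 0.0563% lower (65 and 8 genes, and 74 and 20 after a further quantile normalization). For all 9 genes the lower Ad-atrogin-1 signal exceeded the higher Ad-GFP signal, a pattern that 20.7% of all genes showed, while 22.3% showed the opposite one. Their log2 fold changes ran between 0.36 and 1.77 with a median of 1.08, beside a median of -0.003 over all genes. Herpud1 and Selenos are also among the genes that the study itself drew from these arrays. All 9 genes were measured on the same 4 arrays and chosen with earlier results known, so no direction here is independent evidence. With 2 arrays per group, an exact two-sided permutation test of a single gene cannot go below p = 0.333.

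**Figure D1:**
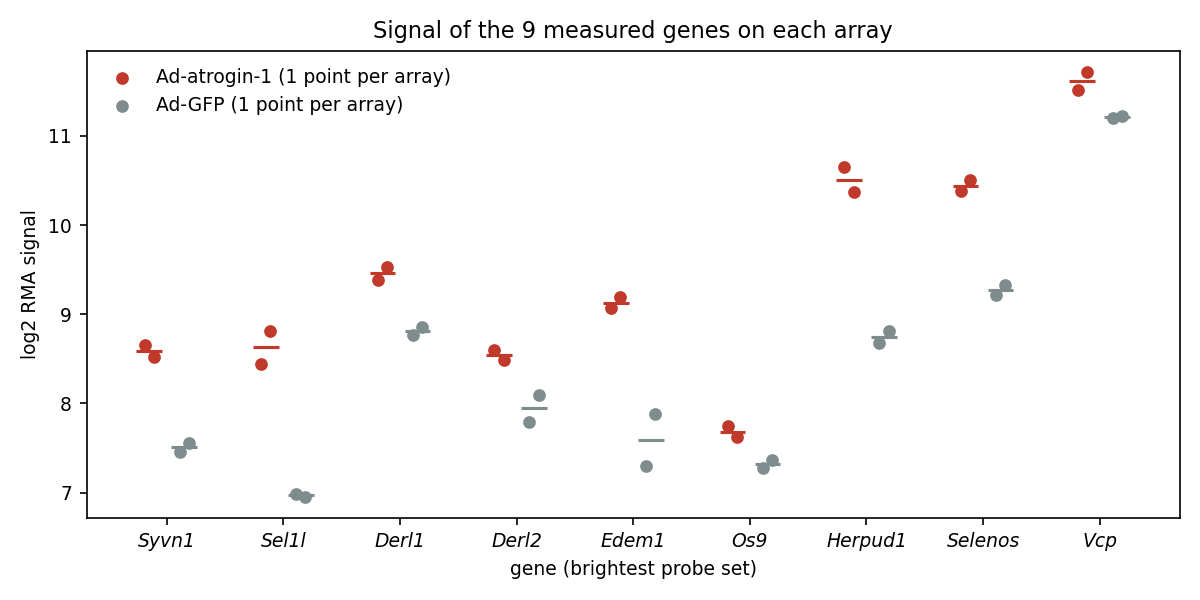
Log2 RMA signal (vertical axis) of the brightest probe set of each of the 9 measured genes (horizontal axis) on the 2 Ad-atrogin-1 arrays (red) and the 2 Ad-GFP arrays (grey), with lines for the group means; signals of different genes are not comparable. For all 9 genes both red points lie above both grey points, with a gap between 0.26 for Os9 and 1.57 for Herpud1.

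The upstream sequences of the 4 called genes are shown because genes of this route are known targets of ER stress factors, together with that of Vcp, whose change was small. Among the measured genes that were not called, only Vcp had a match to one of the longer motifs below. The promoters of Edem1 and Derl2, which had none, and of Derl3 are not printed. A RefSeq promoter (GRCr8, 250 bases before to 50 after the start site) was found for 8 of the 10 listed genes, the exceptions being Derl1 and Os9. The start site used lies 9461 bases inside the annotated span of the gene for Herpud1, 2686 for Edem1 and 2172 for Syvn1, and at most 75 bases inside it for the other 5, so that for these 3 genes sequence at the outer end of the span was not searched. Exact matches were sought on both strands to the ER stress response element ERSE (CCAAT, 9 bases of any kind, then CCACG), to ERSE-II (ATTGG, 1 base of any kind, then CCACG), to the unfolded protein response element core TGACGTGG and to the C/EBP-ATF composite site TGATGNAAT. Each sequence reads 5′ to 3′ on the strand of the gene, and capitals mark ATTGG and CCACG of ERSE-II, the core TGACGTGG, and CCACG or its complement CGTGG alone, which the longer elements contain or overlap.
Herpud1, chr19:10614658-10614957, minus strand: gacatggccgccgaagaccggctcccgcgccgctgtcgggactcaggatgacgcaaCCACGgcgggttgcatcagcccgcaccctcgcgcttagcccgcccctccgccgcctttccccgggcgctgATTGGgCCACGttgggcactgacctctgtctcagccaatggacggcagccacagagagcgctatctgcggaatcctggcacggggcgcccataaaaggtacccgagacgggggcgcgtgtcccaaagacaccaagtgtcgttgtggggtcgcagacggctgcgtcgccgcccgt
Sel1l, chr6:116510312-116510611, minus strand: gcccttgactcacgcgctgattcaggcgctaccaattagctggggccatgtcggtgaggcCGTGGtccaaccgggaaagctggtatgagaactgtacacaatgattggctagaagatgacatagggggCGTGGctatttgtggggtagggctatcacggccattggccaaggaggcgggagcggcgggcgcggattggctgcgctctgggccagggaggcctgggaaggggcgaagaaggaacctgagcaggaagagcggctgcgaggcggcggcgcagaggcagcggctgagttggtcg
Selenos, chr1:129069990-129070289, plus strand: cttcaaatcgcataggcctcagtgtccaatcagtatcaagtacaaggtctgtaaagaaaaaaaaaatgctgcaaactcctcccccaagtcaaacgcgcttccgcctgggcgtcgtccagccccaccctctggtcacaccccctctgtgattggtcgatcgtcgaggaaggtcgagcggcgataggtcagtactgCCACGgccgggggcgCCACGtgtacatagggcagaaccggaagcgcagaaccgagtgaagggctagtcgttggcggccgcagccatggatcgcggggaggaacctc
Syvn1, chr1:212768658-212768957, plus strand: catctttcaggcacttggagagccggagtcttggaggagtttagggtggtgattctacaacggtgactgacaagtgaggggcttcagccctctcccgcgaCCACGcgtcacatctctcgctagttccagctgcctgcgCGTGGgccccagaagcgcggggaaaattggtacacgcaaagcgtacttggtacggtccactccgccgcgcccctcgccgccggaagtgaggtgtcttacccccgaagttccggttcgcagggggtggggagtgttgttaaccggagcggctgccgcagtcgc
Vcp, chr5:62025338-62025637, minus strand: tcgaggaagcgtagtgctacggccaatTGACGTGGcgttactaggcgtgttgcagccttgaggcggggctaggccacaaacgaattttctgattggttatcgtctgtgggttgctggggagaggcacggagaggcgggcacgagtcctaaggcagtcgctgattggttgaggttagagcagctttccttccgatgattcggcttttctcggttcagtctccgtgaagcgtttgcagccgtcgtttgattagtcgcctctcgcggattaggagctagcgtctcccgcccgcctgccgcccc

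Herpud1 held ERSE-II, the element ATTGGgCCACG at bases -124 to -114 from the start site, which 15 of 27457 promoters held (0.0546%). In the promoter of Derl3, which has no probe set here, ERSE lay on the opposite strand at -154 to -136 as CGTGGgacttccttATTGG, a match found in 21 promoters (0.0765%). The Vcp promoter held the core TGACGTGG at -223 to -216, found in 0.637% of promoters. None of the 8 promoters held the C/EBP-ATF site, which 1.05% of all promoters held. The 5-base core CCACG, counted alone after these results were seen, was present in 7 of the 8 promoters (87.5%), with Derl2 the exception, against 32.5% of all promoters and 30 of 46 (65.2%) of those of the wider pathway list below. Sel1l, Selenos, Syvn1, Edem1 and Derl2 had no match to any of the 4 longer motifs in this window. These matches are descriptions of letters, and binding was not measured.

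**Figure D2:**
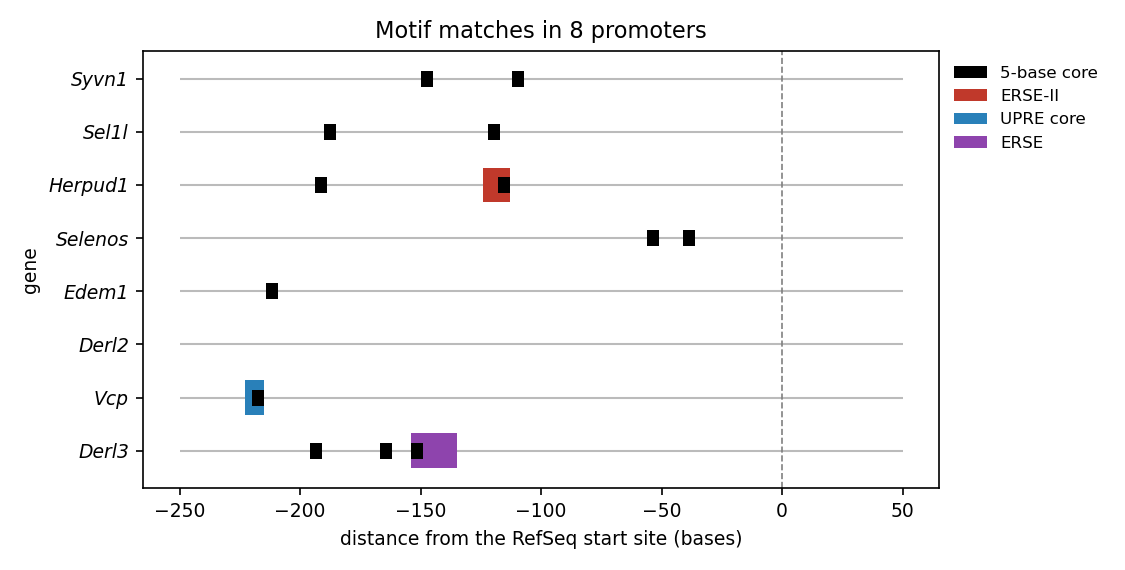
Position of each motif match (coloured bars; distance in bases from the RefSeq start site, horizontal axis) in the promoters of 8 genes of the machinery (rows). Herpud1 carries the only ERSE-II among them, at -124, Derl3 the only ERSE and Vcp the only match to the unfolded protein response element core, and black bars mark the 5-base core of ERSE.

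The membrane ligase core was higher in both of its subunits. Syvn1 encodes HRD1, the multispanning RING-finger ligase that ubiquitinates clients at the ER membrane. Its log2 signal at 1371827_at was 8.66 and 8.52 on the Ad-atrogin-1 arrays, against 7.46 and 7.56 on the Ad-GFP arrays. The log2 fold change was 1.08 (standard error 0.12, 95% interval 0.78 to 1.39, adjusted p = 0.0418, limma), and it did not pass under adjustment over all probe sets in place of genes (adjusted p = 0.0536). Sel1l, whose product stabilises HRD1 and receives its clients in the lumen, had log2 signals of 8.45 and 8.81 in Ad-atrogin-1, against 6.98 and 6.95 in Ad-GFP cardiomyocytes. Its group means were 8.63 ± 0.26 and 6.97 ± 0.02 (SD, n = 2 arrays each), which differ by 1.66 (standard error 0.16, adjusted p = 0.0272, limma). The lower Ad-atrogin-1 array lay 1.47 above the higher Ad-GFP array, a gap larger than the difference of 0.36 between the 2 Ad-atrogin-1 arrays.

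Both adaptors of the complex rose. Herpud1, the gene of a membrane protein with a ubiquitin-like domain that binds HRD1 and the derlins, had the largest change of the 9 genes, with log2 signals of 10.65 and 10.38 on the Ad-atrogin-1 arrays and 8.67 and 8.81 on the Ad-GFP arrays. The groups were 1.57 apart at their nearest arrays. The log2 fold change was 1.77 (standard error 0.14, 95% interval 1.41 to 2.13, adjusted p = 0.0179, limma). Its promoter is the sequence above that holds ERSE-II. Selenos encodes VIMP, a selenium-containing membrane protein that recruits p97 to the derlins. It had log2 signals of 10.38 and 10.51 in Ad-atrogin-1 and 9.22 and 9.32 in Ad-GFP cardiomyocytes, so that both groups were tight and 1.06 apart. The log2 fold change was 1.17 (standard error 0.12, 95% interval 0.87 to 1.48, adjusted p = 0.0341, limma).

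Neither gene of glycoprotein recognition passed, although both were higher in Ad-atrogin-1 cardiomyocytes at their brightest probe set. Edem1, which encodes a lectin of the mannosidase family that marks misfolded glycoproteins for disposal, had log2 signals of 9.07 and 9.19 on the Ad-atrogin-1 arrays and 7.30 and 7.88 on the Ad-GFP arrays. The log2 fold change was 1.54 (standard error 0.21, 95% interval 1.02 to 2.06), a 2.90-fold difference that did not pass (adjusted p = 0.0570, limma). The 2 Ad-GFP arrays differed by 0.58, the widest spread within a group among the 9 genes. Edem1 did pass with the arrays centred on their medians (adjusted p = 0.0446) and after a further quantile normalization (adjusted p = 0.0479), within a range of 0.0446 to 0.503 over 13 alternatives. The other Edem1 probe sets were also at least 2-fold higher, with log2 fold changes of 1.08 at 1384186_at (standard error 0.25) and 1.11 at 1395248_at (standard error 0.15), and neither passed over all probe sets (adjusted p = 0.221 and 0.0771, limma). Os9, the gene of a lectin that reads trimmed glycans and passes clients to SEL1L, had log2 signals of 7.74 and 7.63 in Ad-atrogin-1 and 7.27 and 7.37 in Ad-GFP cardiomyocytes. Its groups did not overlap, but the log2 fold change of 0.36 (standard error 0.12, 95% interval 0.06 to 0.66) did not pass (adjusted p = 0.292, limma). A dim Os9 probe set, 1397583_at, had 4.13 and 4.41 in Ad-atrogin-1 and 4.12 and 4.16 in Ad-GFP cardiomyocytes and is the only one of the 15 whose groups overlapped.

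The derlins, multispanning membrane proteins that take part in moving clients out of the ER, were higher by less than 2-fold, and neither measured gene passed. Derl1 had log2 signals of 9.39 and 9.53 on the Ad-atrogin-1 arrays and 8.77 and 8.86 on the Ad-GFP arrays at its brightest probe set, 1389615_at. The log2 fold change was 0.65 (standard error 0.12, 95% interval 0.34 to 0.95, adjusted p = 0.107, limma). The other Derl1 probe sets had 0.80 at 1367529_at (standard error 0.13) and 0.70 at 1374581_at (standard error 0.13), so that all 3 probe sets of the gene lay between 0.65 and 0.80. Derl2 had log2 signals of 8.60 and 8.49 in Ad-atrogin-1 and 7.80 and 8.09 in Ad-GFP cardiomyocytes. The difference was 0.60 (standard error 0.15) and did not pass (adjusted p = 0.192, limma), and at the dimmer probe set 1377763_at it was 0.78 (standard error 0.16). At every probe set of these genes the 2 groups were apart, with Ad-atrogin-1 the higher.

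Vcp, the gene of the hexameric ATPase p97 that extracts ubiquitinated proteins from the ER membrane and also works in many other processes of the cell, had log2 signals of 11.51 and 11.72 in Ad-atrogin-1 and 11.21 and 11.23 in Ad-GFP cardiomyocytes. The groups did not overlap and were 0.29 apart. The log2 fold change was 0.40 (standard error 0.13, 95% interval 0.08 to 0.72) and did not pass (adjusted p = 0.276, limma). This interval lies below those of Herpud1, Sel1l, Selenos, Edem1 and Syvn1; whether the genes' changes differ from each other was not tested.

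At the level of probe sets, 3 of the 15 passed limma over all probe sets, those of Herpud1, Sel1l and Selenos, while 0.248% of all probe sets were called higher. Of the 15, 14 had groups that did not overlap and were higher in Ad-atrogin-1, a pattern of 18.3% of all probe sets. At least 2-fold higher with an unadjusted p under 0.05 in limma were 7 of the 15, and 217 of all 31042 probe sets. The median log2 fold change was 0.80, against -0.01 over all probe sets. The brightest probe sets of the 9 genes lay in the upper part of the signal range, brighter than 77.8% (Os9) to 99.2% (Vcp) of all probe sets.

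**Figure D3:**
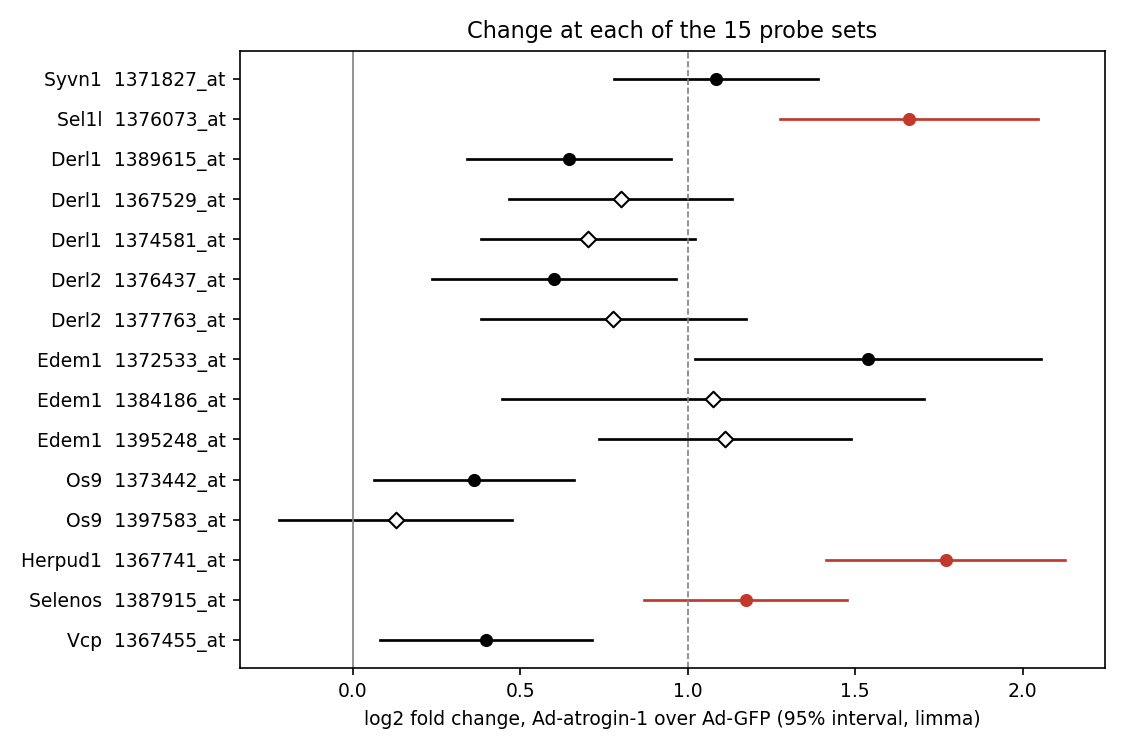
Change in log2 signal (Ad-atrogin-1 minus Ad-GFP, horizontal axis) with its 95% interval from limma at each of the 15 probe sets (rows); filled circles are the brightest probe set of a gene, open diamonds its others, red marks probe sets called over all probe sets, and the dashed line is 2-fold. Herpud1, Sel1l and Selenos are red, Syvn1 (1.08) passed over genes only, and the second Os9 probe set (0.13) is the only one whose interval includes 0.

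**Figure D4:**
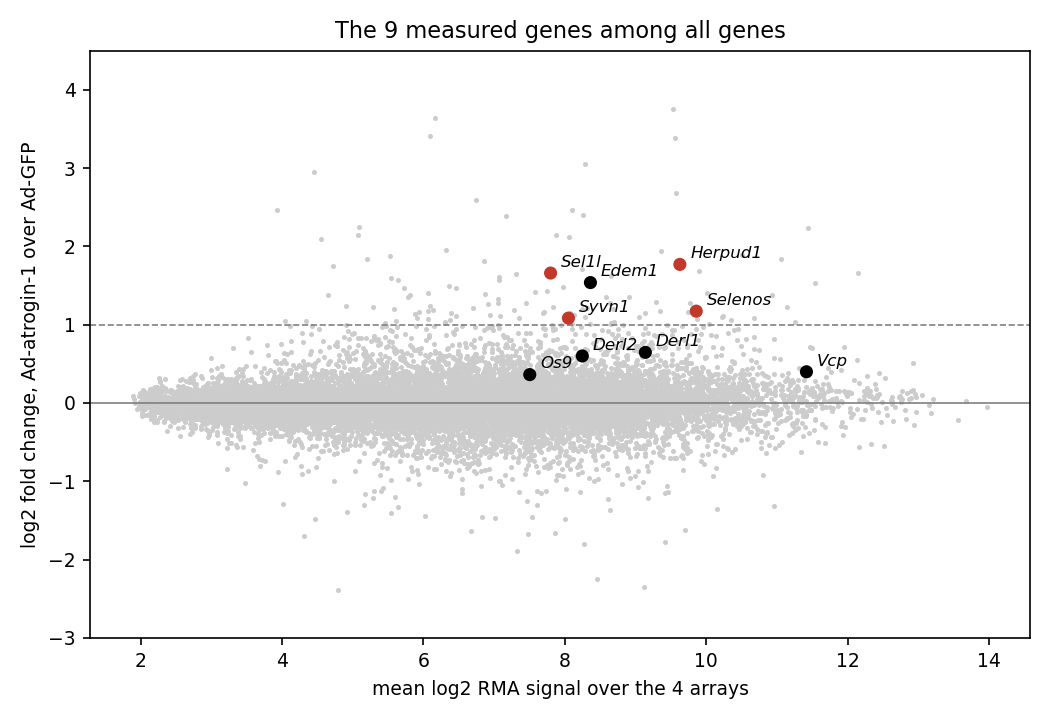
Change in log2 signal (Ad-atrogin-1 minus Ad-GFP, vertical axis) against the average log2 signal of the 4 arrays (horizontal axis) for all 14217 genes (grey), with the 9 genes of the machinery named and those called higher in red. The 9 genes lie between 0.36 and 1.77, and 1 gene beyond the plotted range is not shown.

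The 4 calls depend on all 4 arrays and on the test, as nearly all calls over all genes do. Leaving out any 1 array leaves a group with a single array that is assumed to vary like the other group. Nearly all calls were then lost over all genes as well as in these 9, so the loss is not particular to them. The log2 fold changes of the 4 called genes then stayed between 1.02 for Syvn1 and 1.91 for Herpud1. An equal-variance test of 2 means was the nearest to the wording of the study's methods. After adjustment it called none of the 9 genes (adjusted p = 0.417 to 0.461 for the 4) and 0 of all 14217 genes. Its unadjusted p was 0.0073 for Herpud1 and 0.0050 for Selenos. The study printed far lower p-values for both genes, so its own test was not reproduced here.

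A wider list of 60 other genes of the route, chosen with earlier results of these arrays known, had 55 measured genes. Limma called none of them higher or lower. Over all genes 0.457% were called higher and 0.0563% lower, so a list of this size may have no call at those shares. Of the 55, 8 had an unadjusted p under 0.05 in limma, where 13.4% of all genes did, a share near that of the list. Groups overlapped for 24 genes, 22 were apart and higher in Ad-atrogin-1 and 9 apart and lower, where 20.7% and 22.3% of all genes were so. Their median log2 fold change was 0.07. Genes of the lumenal steps had the highest median. Among 6 measured lectin, mannosidase and reductase genes the median was 0.66, and 4 were apart and higher in Ad-atrogin-1. The brightest of them, the OS9-like lectin gene Erlec1, had log2 signals of 9.41 and 9.31 in Ad-atrogin-1 and 8.73 and 8.54 in Ad-GFP cardiomyocytes, a difference of 0.72 (standard error 0.13) that did not pass (adjusted p = 0.0976, limma).

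The 2 largest changes of the wider list, named after their values were seen, were also lumenal or at the ER membrane. Txndc11, the gene of a thioredoxin-domain protein that works with EDEM proteins, had log2 signals of 8.14 and 8.03 in Ad-atrogin-1 and 6.57 and 7.05 in Ad-GFP cardiomyocytes. The 2.42-fold difference, 1.27 in log2 (standard error 0.18), did not pass (adjusted p = 0.0603, limma) but did with arrays centred on their medians (adjusted p = 0.0476). Edem2, a relative of Edem1 in the trimming of mannose, had log2 signals of 7.61 and 7.30 in Ad-atrogin-1 and 6.59 and 6.45 in Ad-GFP cardiomyocytes, and differed by 0.93 in log2 (standard error 0.15, adjusted p = 0.0771, limma). The third gene of that family, Edem3, also named after its value was seen, had 0.04 (standard error 0.14) at signals below the lower quartile.

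The medians of the membrane and cytosolic steps lay near 0, with single genes on either side. The median was 0.11 for 13 membrane ubiquitin ligase and conjugating enzyme genes, the brightest of which, the conjugating enzyme gene Ube2g1, had 0.03 (standard error 0.16). It was 0.01 for 14 membrane adaptor genes, with 0.29 (standard error 0.13) for the p97-binding adaptor gene Ubxn4. For 22 genes of p97 cofactors, deglycosylation, shuttles and deubiquitinases it was 0.06, with 0.05 (standard error 0.11) for Rad23b, whose product carries ubiquitinated proteins to the proteasome. The membrane genes with an unadjusted p under 0.05, named for it after their values were seen, were Fam8a1, 0.51 (standard error 0.12), Hm13, 0.48 (standard error 0.12), Rnf170, 0.37 (standard error 0.11), and Rnf139, the lowest of the list. Among the 13 ligase and conjugating enzyme genes 7 were apart and higher in Ad-atrogin-1 and 1 apart and lower. These counts were 4 and 6 among the 14 adaptor genes, and 7 and 2 among the 22 genes of the p97 cofactor role. Over all genes 20.7% were apart and higher and 22.3% apart and lower. Rnf139, the gene of an ER ligase, had log2 signals of 7.91 and 7.88 in Ad-atrogin-1 and 8.32 and 8.28 in Ad-GFP cardiomyocytes (difference -0.40, standard error 0.11, adjusted p = 0.235, limma). Of the 46 promoters found for this list, none held ERSE or ERSE-II and 4 held the core TGACGTGG (8.7%, against 0.637% of all promoters). The genes, named for this match, were Dnajc10, Txndc11, Ube2g2 and Ube2j1, whose log2 fold changes were 0.59, 1.27, 0.28 and 0.32. The C/EBP-ATF site was in 1 promoter (2.17%, against 1.05% of all), that of Man1b1, also named for its match. Its log2 fold change was 0.01 (standard error 0.16). Whether a match goes with a change was not tested.

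**Figure D5:**
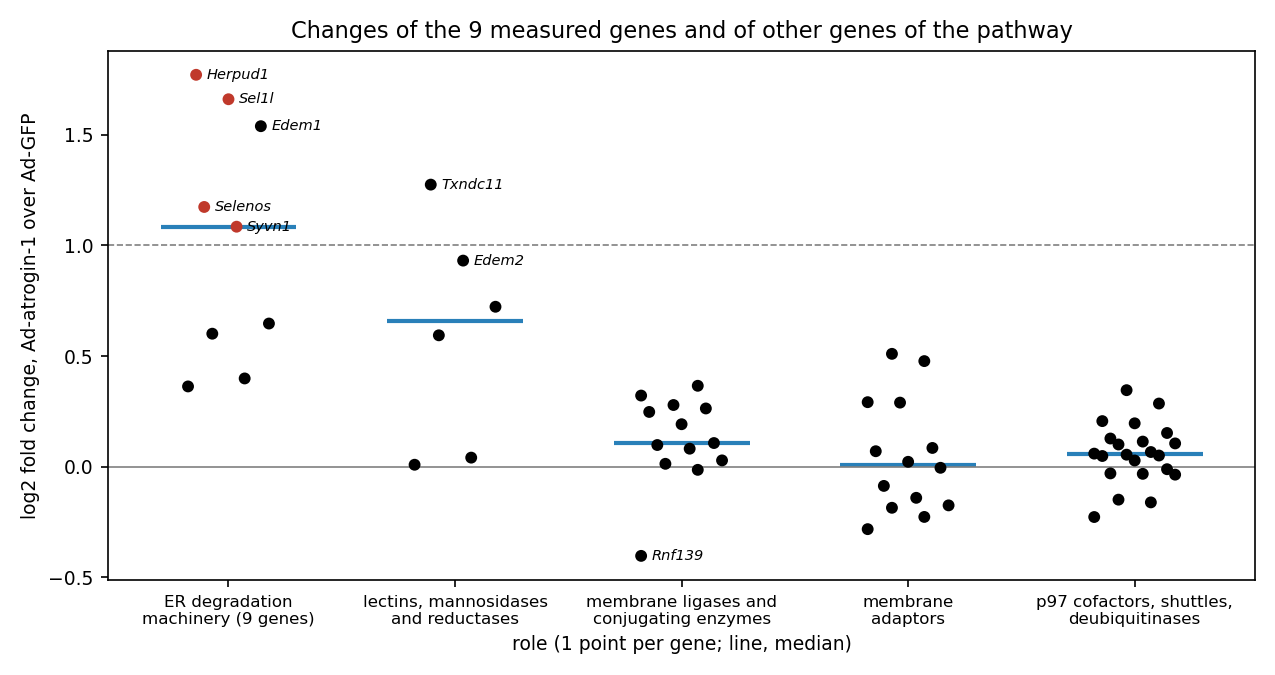
Change in log2 signal (Ad-atrogin-1 minus Ad-GFP, vertical axis) of the 9 measured genes of the machinery and of 55 other genes of the pathway by role (horizontal axis), 1 point per gene, red for genes called higher and blue lines for medians. The medians are 1.08 for the machinery, 0.66 for lectins, mannosidases and reductases, and 0.11, 0.01 and 0.06 for the 3 other roles.

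Fbxo32, the gene of atrogin-1, had log2 signals of 13.55 and 13.47 in Ad-atrogin-1 and 5.24 and 5.04 in Ad-GFP cardiomyocytes, in the direction of the labels, although the probe set does not separate viral from cellular RNA. Array medians were 5.51 to 5.52, and the 11 measured cardiomyocyte markers had signals above the lower quartile, with summed log2 signals of 15.44 to 15.77 in Ad-atrogin-1 and 15.49 to 15.59 in Ad-GFP cardiomyocytes. Fibroblast, endothelial, smooth muscle and macrophage marker sums overlapped between the groups, and no marker of any of these cells passed limma. Single markers were apart in both directions. Of the 11 cardiomyocyte markers 4 were apart and higher in Ad-atrogin-1 and 1 apart and lower, and of 10 fibroblast markers 2 and 1. Over all genes 20.7% and 22.3% were so. Of the smooth muscle and pericyte markers (named after their values were seen) the pericyte gene Rgs5 was apart by 0.98 (standard error 0.18, adjusted p = 0.102, limma). Myh11 was apart by 0.32 (standard error 0.11) and Cspg4 by -0.50 (standard error 0.15). The part of single markers in the results was not tested. The sum of 5 plasma cell and B cell markers, cells in which this machinery is abundant, was 8.36 to 8.43 in Ad-atrogin-1 and 8.72 to 9.10 in Ad-GFP cardiomyocytes, to which Sdc1 (named after its values were seen) gave most, while Mzb1 and Tnfrsf17 lay under the lower quartile. The excess of the 3′ over the 5′ beta-actin control probe set, a sign of RNA integrity, was 1.12 to 1.15 in Ad-atrogin-1 and 1.19 to 1.22 in Ad-GFP cardiomyocytes, and its part in the results was not tested. The same difference for GAPDH overlapped, at -0.01 to 0.02 in Ad-atrogin-1 and -0.02 to 0.07 in Ad-GFP cardiomyocytes. In RNA from whole cultures, more cells of a type and more RNA per cell cannot be told apart.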

How the data were processed

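Total RNA of 4 cardiomyocyte cultures was hybridized to Affymetrix Rat Genome arrays. The authors made log2 signals per probe set by RMA in GeneSpring GX, which brings the distributions of the arrays close together. They were not equal in the deposited values, with lower quartiles of 3.88 to 3.94 on the 4 arrays. These deposited log2 values were used as they are, without a filter on low signal. The 57 control probe sets were left out. Probe sets were paired with genes through the platform annotation (20826 with 1 gene, 436 with several, 9780 with none). The comparison used limma (version 3.58.1, R 4.3.3) with lmFit and eBayes, without a block (two-sided, a prior of 3.65 degrees of freedom beside 2 residual ones), with Benjamini-Hochberg adjustment over 31042 probe sets or, with the brightest probe set per gene, over 14217 genes. Intervals are 95% intervals of the moderated fit. The number of arrays limits the precision. The genes, the lists and the motifs were chosen with earlier results of these data known. All 10 listed genes are named. Of the wider list the rule names called genes or, in a role with none, the brightest gene. Others named are marked as chosen after their values were seen or for a motif match. Alternatives were median centring, a further quantile normalization, a signal filter, other priors and thresholds, averaging over the probe sets of each gene, the methods' t-test (the methods speak of comparing 2 means, taken here as an equal-variance test), the replicate number as a block, and each array left out. Motifs were searched in RefSeq promoters (27457 genes, GRCr8). Figures were drawn with matplotlib 3.10.9.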

Additional observations from a re-analysis of the deposited data

How the results depend on the processing

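All 9 genes kept a positive log2 fold change under median centring, quantile normalization, averaging over probe sets and with each array left out. For each of the 9, both Ad-atrogin-1 arrays lay above both Ad-GFP arrays, so leaving out an array could not change the sign. The kept sign is therefore no added support. Of the 9, 4 or 5 were called under both scalings, a filter that keeps the brightest 60% of probe sets, both other priors, no fold threshold, unadjusted p and averaging over probe sets. With p adjusted over all probe sets 3 were called. Over all 14217 genes, 98 were called under median centring, 94 after quantile normalization, 75 with no fold threshold and 83 with averaging. The other priors called 74 and 73, and the filter 69 of 10498 genes. After adjustment, the methods' t-test called 0 member genes, 0 member probe sets and 0 of all 14217 genes, against 4, 3 and 73 (65 higher, 8 lower) in limma, with 7 of the 9 genes and 2598 probe sets at an unadjusted p under 0.05. With unadjusted p and 2-fold that test called 5 of the 9 member genes, 1 gene of the wider list and 117 of all genes. Of probe sets it called 6 of the 15 members, and 158 of all 31042 higher and 33 lower. Limma with unadjusted p called 5 member genes, 1 gene of the wider list and 165 of all genes. Of probe sets limma called 7 of the 15 members, and 217 of all higher and 78 lower. The gene of the wider list was Txndc11, which also was the 1 gene called under median centring. With any 1 array left out, limma called 0 member genes, 0 member probe sets, 0 genes of the wider list and 0 to 1 of all genes, with 7 to 8 of the 9 genes and 2449 to 2852 probe sets at an unadjusted p under 0.05. Same-numbered arrays did not deviate together (Pearson r = 0.04 across probe sets), and with the replicate number as a block limma called 0 member genes, 0 member probe sets and 1 of all genes, with all 9 member genes and 3395 of the 31042 probe sets at an unadjusted p under 0.05. Dim signals were not compared with a background level, which limits the second Os9 probe set and Edem3.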
